A study of Rattus norvegicus with 56 samples.

Results

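The nuclear genes of respiratory complexes I and II are described here in the rat mammary gland. They were taken as every gene whose single symbol begins with Nduf, or is Sdha to Sdhd, or begins with Sdhaf, with 1 probe set per gene, the one with the highest mean over the 24 arrays of individual rats. This gave 49 genes of 10411 with a single symbol on the array, 41 named Nduf and 8 named Sdh, which together had 52 probe sets. By role they were 34 complex I subunits, 5 complex I assembly factors, Ndufa4 and its paralog Ndufa4l2, the 4 complex II subunits and 4 complex II assembly factors. Ndufa4 carries the name but is an accessory protein of complex IV. Both Ndufa4 and Ndufa4l2 are kept among the 49 genes and are not in the complex IV list used below. Not every gene of both complexes is a member: Ndufa10, Ndufs5, Ndufaf1, Ndufaf2 and Ndufaf6, for example, had no probe set with a single symbol.

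Complex I, NADH:ubiquinone oxidoreductase, takes electrons from NADH through a flavin and a chain of iron-sulphur clusters in its matrix arm, hands them to ubiquinone and pumps protons through its membrane arm. Complex II, succinate dehydrogenase, oxidises succinate to fumarate as a step of the citrate cycle, passes the electrons to the same ubiquinone pool and pumps no protons. Both sit in the inner mitochondrial membrane of every cell type of the gland, and in adipocytes, which fill much of the gland, mitochondrial genes are known to rise during differentiation.

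Expression was measured on single-colour arrays hybridised with labelled cRNA from the mammary gland of Wistar Furth females, rats of an inbred strain. In 1 group of 12 rats the labels name an RXR treatment, and 12 further rats were controls. RXR commonly denotes the retinoid X receptor, which binds DNA as a partner of other nuclear receptors. The sources used here give no compound, dose or age of the rats. Of the treated rats 6 were in diestrus and 6 in proestrus or estrus, and of the controls 9 and 3. Fragmented targets of the same rats were also mixed into 6 pools of 2 and 4 pools of 3 for each group and into 1 pool of 12 for each group, hybridised 4 times, and rat 3 of each group had 2 further arrays, which makes 56 arrays. The pools hold the rats of the individual arrays, so these designs are not independent of each other.

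Values are the deposited log2 signals, whose array medians lay between 7.40 and 7.48, and differences are treated minus control on this scale. A gene is called where its adjusted p was under 0.05 by limma with Benjamini-Hochberg adjustment over all 15866 probe sets. The 49 genes had a median SD between rats of the same group of 0.17, against 0.09 between repeat arrays of the same target. In Ndufaf7 the SD between repeat arrays, 0.104, was above that between rats, 0.0993. Krt8, a keratin of the luminal epithelium of the labelled tissue, averaged 10.78 ± 0.33 in treated and 11.19 ± 0.26 in control rats (SD, n = 12 each). An array of the control pool of 12 stood apart: it had a correlation of only 0.0801 with the first array of that pool, as deviations across probe sets, while the other repeat arrays had 0.565 to 0.820. Control rat 15 had the highest position, 15.1, on the axis along which repeat arrays differ most, called the technical score below.

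Promoters of genes at different places in both complexes are shown as examples. The part of their sequence in the differences was not tested. Each runs from 250 bases before to 50 bases after the RefSeq start on the rat build GRCr8, 5′ to 3′, with matches to 4 motifs in capitals: NRF1 (GCGCANGCG), ETS (CCGGAAG), YY1 (AAGATGGCG) and the ERR element (AAGGTCA), searched on both strands. None of these words contains another. Ndufs1 has an ETS word on the opposite strand starting at -199, Sdha has 3 NRF1 words, Ndufs7 has a YY1 word starting 5 bases after the start, and Ndufc1 has no match to the 4 motifs.
Ndufs1 (chr9:72073556-72073855, minus strand): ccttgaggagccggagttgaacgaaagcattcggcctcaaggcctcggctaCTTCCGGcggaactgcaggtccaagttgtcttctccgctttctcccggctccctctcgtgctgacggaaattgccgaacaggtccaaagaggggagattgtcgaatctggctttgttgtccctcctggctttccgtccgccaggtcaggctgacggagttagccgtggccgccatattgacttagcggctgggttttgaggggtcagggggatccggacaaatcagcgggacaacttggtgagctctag
Sdha (chr1:30764303-30764602, plus strand): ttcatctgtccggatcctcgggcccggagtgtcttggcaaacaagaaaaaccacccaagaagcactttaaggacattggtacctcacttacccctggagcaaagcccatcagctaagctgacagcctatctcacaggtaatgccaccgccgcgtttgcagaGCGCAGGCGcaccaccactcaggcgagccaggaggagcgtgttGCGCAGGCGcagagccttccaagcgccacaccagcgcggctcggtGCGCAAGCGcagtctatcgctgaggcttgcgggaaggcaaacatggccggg
Ndufs7 (chr7:10110449-10110748, minus strand): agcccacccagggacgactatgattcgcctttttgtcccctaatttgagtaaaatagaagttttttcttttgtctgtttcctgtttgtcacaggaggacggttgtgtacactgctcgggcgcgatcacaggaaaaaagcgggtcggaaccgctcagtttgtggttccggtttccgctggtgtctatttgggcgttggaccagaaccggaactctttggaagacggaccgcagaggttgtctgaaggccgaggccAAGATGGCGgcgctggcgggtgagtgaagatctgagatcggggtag
Ndufc1 (chr2:137601686-137601985, minus strand): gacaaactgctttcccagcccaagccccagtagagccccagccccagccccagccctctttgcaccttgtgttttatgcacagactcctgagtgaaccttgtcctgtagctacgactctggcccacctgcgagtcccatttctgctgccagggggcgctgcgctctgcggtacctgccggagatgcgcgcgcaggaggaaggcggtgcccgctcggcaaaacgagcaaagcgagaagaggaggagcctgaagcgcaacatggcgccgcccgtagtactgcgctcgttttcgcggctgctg

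A promoter was found for 47 of the 49 genes. The NRF1 word stood in 13 of the 47 (27.7%) against 5.80% of all 33469 rat promoters in the table. The ETS word stood in 13 as well (27.7% against 8.75%), the YY1 word in 8 (17.0% against 1.73%), the ERR element in 4 (8.51% against 4.61%) and the GC box GGGCGG in 24 (51.1% against 33.1%). There were 2 promoters with both the NRF1 and the ETS word. The 28 genes with an NRF1, ETS or YY1 word had a median difference between treated and control rats of 0.35, and the 19 with none of them also 0.35. The 33469 promoters were not limited to genes measured on the array, so the 2 shares of each word come from unlike sets. These are matches of letters, given as a description.

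Treated glands had higher signals of most complex I and II genes. Of the 49 genes 44 rose and 0 fell in the individual rats, where 8.46% of all probe sets were called higher and 9.59% lower. The median difference over the 49 genes was 0.35, a fold of 1.27 at Ndufa4, which lies at that median, while the median over all probe sets was -0.00. The difference was above 0 in 48 of the 49 genes and ran from -0.03 in Ndufaf7 to 0.81 in Ndufs1. In 34 genes all 12 treated rats lay above the control mean, and in 44 at least 11 did. The share of all probe sets that do so was not computed. Complete separation was rare: in 2 genes, Ndufc1 and Sdhaf3, every treated rat lay above every control rat, where 0.384% of all probe sets were separated so. Whole glands were measured, so that a change in the share of a cell type and a change in the mRNA of each cell cannot be told apart.

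**Figure D1:**
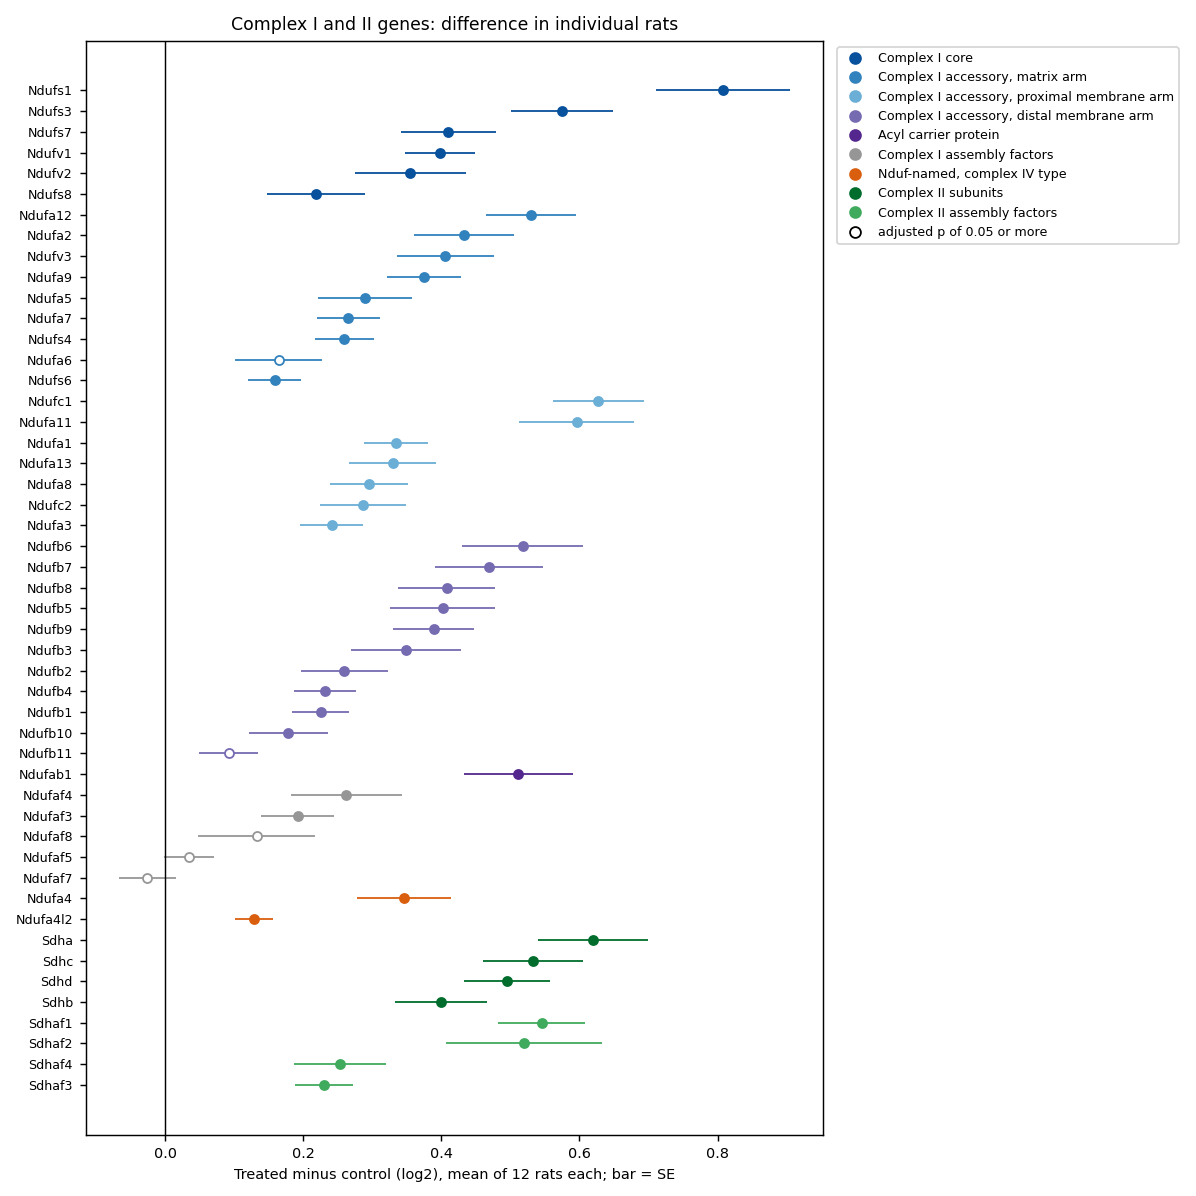
Difference between treated and control individual rats for each of the 49 genes, on the log2 scale (horizontal axis), as limma's estimate with its standard error, grouped and coloured by role; filled points have an adjusted p under 0.05. All but Ndufaf7 lie above 0, and the 5 open points are Ndufa6, Ndufb11, Ndufaf5, Ndufaf7 and Ndufaf8.

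The core of complex I holds the subunits that carry the flavin and the iron-sulphur clusters, and all 6 measured members rose, with a median of 0.40. Ndufs1, the largest core subunit, which carries iron-sulphur clusters of the NADH-oxidising module, had the largest difference of all 49 genes. Its values in treated rats had a lowest of 8.42, a median of 8.985 and a highest of 9.25, and in control rats 7.92, 8.065 and 8.59. The 2 lowest treated rats lay below the highest control rat, so that 10 treated rats lay above all controls. The difference was 0.81 ± 0.10 (SE, n = 12 and 12), a fold of 1.75 (limma adjusted p = 3.1e-06). Ndufs3, a core subunit of the module that binds ubiquinone, rose by 0.57 (adjusted p = 6.04e-06 by limma). Ndufs7, which bears the last iron-sulphur cluster before ubiquinone, rose by 0.41, and Ndufv1, which binds NADH and the flavin, rose by 0.40. Ndufv2, its iron-sulphur partner, rose by 0.36 (limma adjusted p = 0.00227). Ndufs8, another carrier of clusters close to ubiquinone, rose least, by 0.22 (limma adjusted p = 0.0302). Its call was lost with stage as a covariate (adjusted p = 0.071 by limma) and when control rat 5, 10 or 14 or treated rat 12 or 14 was left out (limma adjusted p from 0.0521 to 0.0566).

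Accessory subunits surround this core, and most of them rose as well. In the matrix arm 8 of 9 were called, with a median of 0.29. Ndufa12, which sits at the matrix arm and takes the place of its paralog assembly factor late in assembly, had a lowest value of 10.56, a median of 10.865 and a highest of 11.22 in treated rats, against 10.21, 10.275 and 10.65 in controls. Treated rats lay above all controls in 10 of 12 cases, with 2 in the range of the highest controls. The difference was 0.53 ± 0.07 (SE, n = 12 and 12; limma adjusted p = 4.05e-06). The lowest differences in this arm were those of Ndufs6, which rose by 0.16, and of Ndufa6, whose 0.16 was not called (limma adjusted p = 0.0756).

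In the membrane arm the part next to the matrix arm had 7 of 7 genes called, with a median of 0.33, and the far part 10 of 11, with a median of 0.35. Ndufc1, a small subunit of the membrane arm, had the smallest p of the 49 genes. It ran from 10.17 over a median of 10.405 to 10.73 in treated rats and from 9.62 over 9.775 to 10.01 in controls, with no overlap of the groups. Its difference was 0.63 ± 0.07 (SE, n = 12 and 12), a fold of 1.54 (limma adjusted p = 6.41e-07). Ndufa11, a membrane subunit, followed with 0.60 and Ndufb6, of the far part, with 0.52. Ndufb11, also of the far part, was at 0.09 and not called (limma adjusted p = 0.147), with treated rats from 10.85 to 11.18 and controls from 10.79 to 11.12. Ndufab1, the acyl carrier protein of mitochondrial fatty acid synthesis and a subunit of complex I, rose by 0.51 (limma adjusted p = 4.72e-05).

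**Figure D2:**
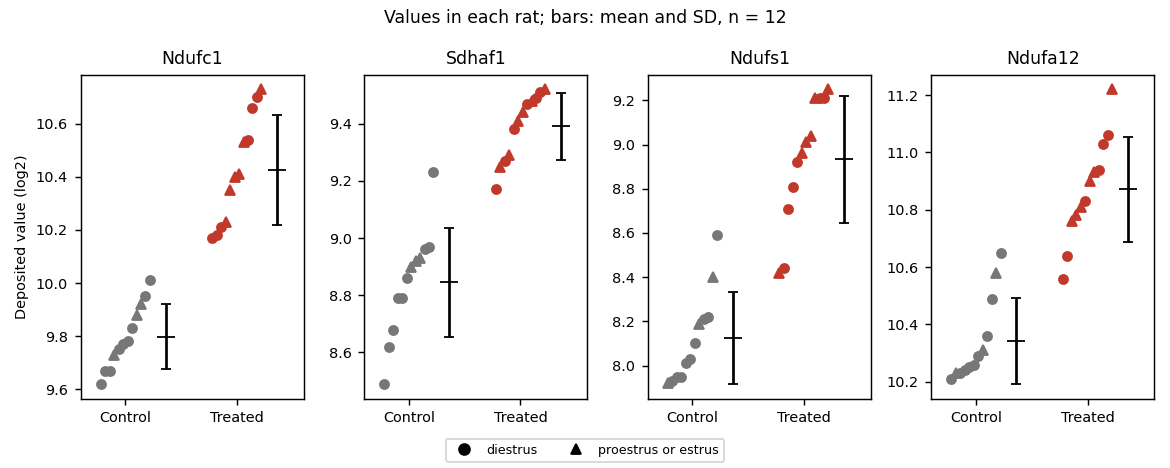
Deposited log2 value (vertical axis, a scale of its own for each gene) of Ndufc1, Sdhaf1, Ndufs1 and Ndufa12 in each of the 12 control and 12 treated rats, ordered by value; circles mark rats in diestrus, triangles rats in proestrus or estrus, and bars give mean and SD. Only Ndufc1 is free of overlap among these 4 genes, and both stages lie mixed within each group.

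The Nduf-named assembly factors build complex I and do not stay in it. Of 5 measured, 2 rose, and the median was 0.13. Ndufaf4 rose by 0.26 (limma adjusted p = 0.0234) and Ndufaf3 by 0.19 (limma adjusted p = 0.0112). The other 3 were not called, Ndufaf8 at 0.13 ± 0.08, Ndufaf5 at 0.04 ± 0.04 and Ndufaf7 at -0.03 ± 0.04 (SE, n = 12 and 12). Whether the assembly factors changed less than the subunits was not tested. Ndufa4, an accessory protein of complex IV, rose by 0.35. Ndufa4l2, its paralog known from the response to low oxygen, rose by 0.13 at a low signal, 5.99 to 6.25 in treated and 5.93 to 6.08 in control rats.

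All 8 genes of complex II rose. Sdha, the flavoprotein that oxidises succinate, had a lowest value of 10.30, a median of 10.735 and a highest of 10.99 in treated rats, and 9.80, 10.04 and 10.30 in controls. The groups met at 10.30, and 11 of 12 treated rats lay above all controls. Its difference was 0.62 ± 0.08 (SE, n = 12 and 12; limma adjusted p = 6.04e-06). The membrane anchors Sdhc and Sdhd rose by 0.53 and 0.50, and the iron-sulphur subunit Sdhb by 0.40 (limma adjusted p = 0.000108). The median of the 4 subunits was 0.51, and that of the 4 assembly factors 0.39.

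Sdhaf1, which serves the iron-sulphur subunit, ran from 9.17 over a median of 9.425 to 9.52 in treated rats and from 8.49 over 8.88 to 9.23 in controls. A control rat, at 9.23, lay above the lowest treated rat, and the next control rat lay at 8.97. The difference was 0.55 ± 0.06 (SE, n = 12 and 12; limma adjusted p = 1.72e-06). Sdhaf2, which helps to attach the flavin to Sdha, rose by 0.52, and Sdhaf4, which binds the flavinated Sdha, by 0.25. Sdhaf3, a further factor for the iron-sulphur subunit, was at a lower signal, 6.59 to 7.0 in treated and 6.35 to 6.58 in control rats, and rose by 0.23 (limma adjusted p = 0.000258).

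Probe sets outside the choice of 1 per gene gave further readings. The other probe sets of Sdhd and Sdhaf2 rose by 0.46 and 0.61 (limma adjusted p = 9.84e-05 and 6.97e-05). The other probe set of Ndufv3, a small accessory subunit of the matrix arm, had a low signal, 5.12 on average over the 24 rats, and a difference of 0.15 that was not called (limma adjusted p = 0.0584), while the one used here rose by 0.41. A probe set shared by Ndufa10 and Ndufa10l1 rose by 0.56 and one shared by Ndufs5 and its copy Ndufs5-ps2 by 0.30; such probe sets cannot separate the genes that share them.

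The rats were also compared by the mean of these genes, although single genes could run against it: Ndufaf4 read 8.13 in treated rat 9 and 7.65 in treated rat 4. The mean of the 49 genes, relative to the control mean, was 0.35 ± 0.14 in treated rats (SD, n = 12), from 0.12 in rat 9 to 0.53 in rat 11. In control rats it ran from -0.10 to 0.26, with an SD of 0.12. Control rats 15 (0.26) and 8 (0.18) lay above treated rats 9 (0.12) and 8 (0.17), so the groups overlapped in this mean. Repeat arrays of the same rat also differed in it: control rat 3 read -0.03, 0.10 and 0.15, and treated rat 3 0.21, 0.24 and 0.34. The order of single rats is therefore uncertain. Control rat 15 had all 49 genes above the control mean and the technical score of 15.1; without it 45 genes were called. The complex II subunits, without their assembly factors, averaged 0.51 ± 0.20 and the complex I subunits 0.36 ± 0.15 in treated rats (SD, n = 12). Technical scores were -0.62 ± 6.27 in treated and 0.62 ± 6.77 in control rats (SD, n = 12), and with the score as a covariate 45 genes rose.

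**Figure D3:**
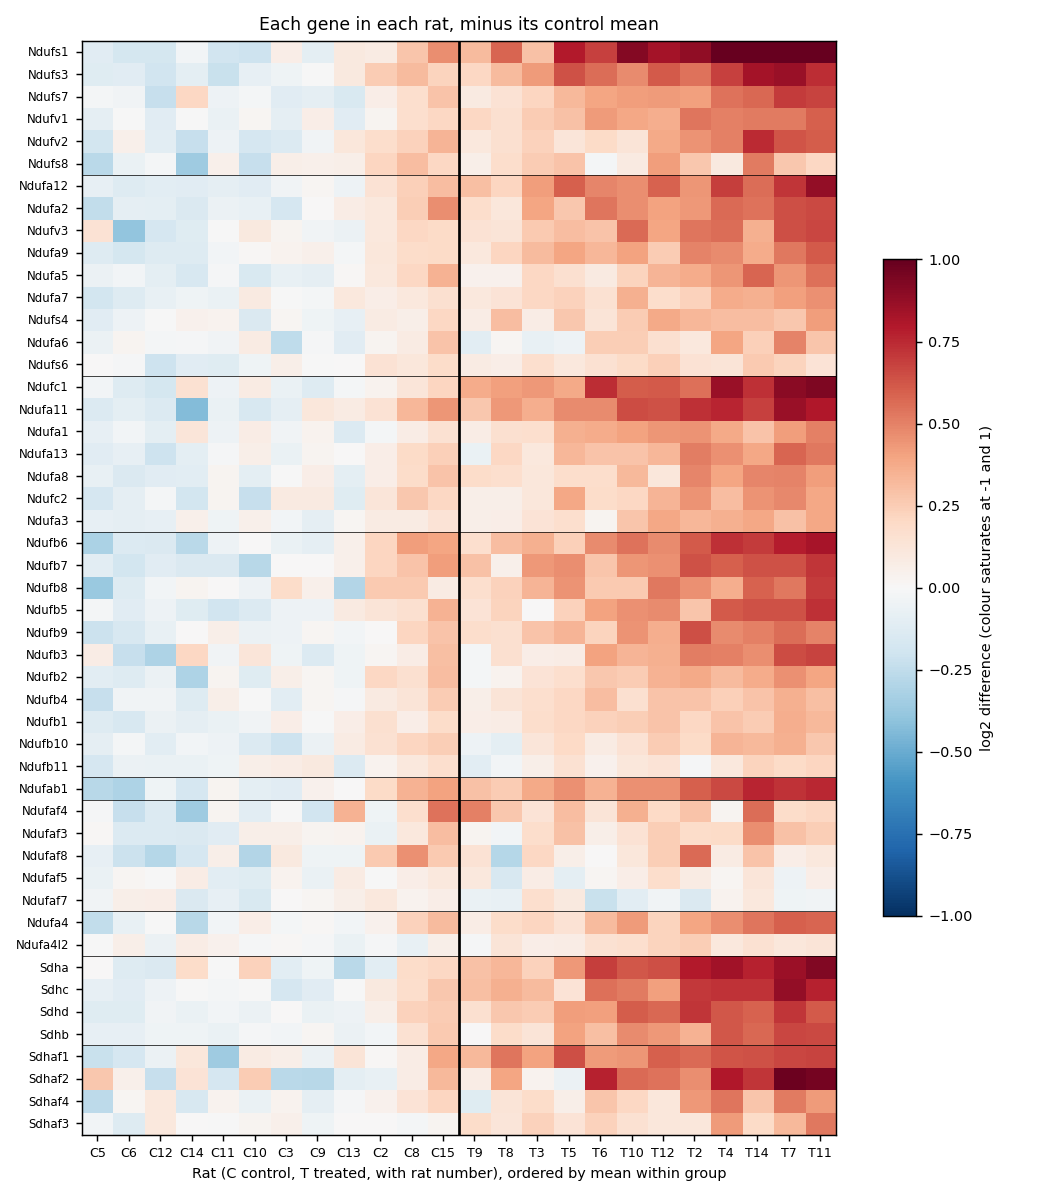
Value of each of the 49 genes (vertical axis, by role) in each control (C) and treated (T) rat (horizontal axis, with the rat number), minus the control mean of the gene, as colour on a log2 scale that saturates at -1 and 1. Rats are ordered by the mean of the 49 genes within each group, from control rat 5 to control rat 15 and from treated rat 9 to treated rat 11; the columns of control rats 8 and 15 are redder than those of the other controls.

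Some markers of the cells of the gland moved with treatment too, where 8.46% of all probe sets were called higher and 9.59% lower. Of 11 measured adipocyte markers 7 rose and 1, Cfd, fell, with a median difference of 0.48, and Ucp1, the uncoupling protein of brown fat, stood at -0.02. The mean of the adipocyte markers relative to the control mean ran from -0.07 to 1.0 in treated and from -0.35 to 0.53 in control rats. It was -0.07 in treated rat 9 and 0.12 in treated rat 3, both low in the complex I and II genes, and 0.82 and 1.0 in treated rats 11 and 7, the highest in them. Treated rats 8 and 6 had 0.36 and 0.69 beside means of 0.17 and 0.29 in the complex I and II genes. Among controls, rats 14 and 10 had the highest adipocyte means, 0.53 and 0.33, beside -0.07 and -0.04 in those genes. Control rat 15, the highest control in those genes, had an adipocyte mean of 0.10. Only some of the rats are named here. Of 12 luminal epithelial markers 9 fell, with a median of -0.34, and their mean ran from -0.51 to -0.14 in treated and from -0.20 to 0.18 in control rats. Of 8 basal markers 4 fell and 1, Oxtr, rose, of 3 macrophage markers 2 rose, of 4 endothelial markers 1 fell, and of 6 brown fat markers 1, Cpt1b, rose. None of the 8 skeletal muscle and 5 lymphocyte markers was called. The part of these cells in the differences of the complex I and II genes was not tested.

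Most of these genes were called higher in the pools of 2 as well, which hold the same rats. In the 6 against 6 pools of 2, 35 of the 49 genes rose and 0 fell, where 5.15% of all probe sets were called higher and 3.67% lower, and the median difference was 0.34. In 16 genes every treated pool lay above every control pool (2.89% of all probe sets). In the 4 against 4 pools of 3, 24 rose and 0 fell, where 3.26% of all probe sets were called higher and 2.97% lower, with a median of 0.27 against -0.035 over all probe sets. Only 13 were called without treated pool of 3 number 2, and 11 without the pools that hold rat 3. The pools of 3 did not overlap in 35 genes (4.71% of all probe sets). Of the 44 genes called in individual rats 24 were called in both kinds of pool, 11 in pools of 2 but not of 3, and 9 in neither. Sdhaf3, which separated all individual rats, was at 0.083 in pools of 2 and 0.085 in pools of 3 and was called in neither (limma adjusted p = 0.442 and 0.579).

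Ndufc1 did not overlap between the groups in individual rats, in pools of 2 or in pools of 3. In pools of 3 the treated arrays read 10.49, 10.53, 10.55 and 10.60 and the controls 9.78, 9.87, 9.94 and 9.94, a difference of 0.66 (limma adjusted p = 0.000291). In pools of 2 it differed by 0.66 as well (limma adjusted p = 0.000113), with treated arrays from 10.24 over a median of 10.525 to 10.64 and controls from 9.70 over 9.83 to 9.99. Ndufs1 in pools of 3 read 8.75, 8.97, 9.08 and 9.23 in treated and 8.04, 8.29, 8.34 and 8.44 in control pools, which did not overlap, and differed by 0.73 (limma adjusted p = 0.0027). Sdhaf1 read 9.39, 9.41, 9.41 and 9.49 against 8.72, 8.85, 8.86 and 9.15, a difference of 0.53 (limma adjusted p = 0.00431). Ndufa12 read 10.76, 10.87, 10.92 and 10.95 against 10.38, 10.38, 10.45 and 10.53, a difference of 0.44 (limma adjusted p = 0.00294). All 4 genes were thus higher in each treated pool of 3 than in each control pool. So were 35 of the 49 genes, these 4 included, and 4.71% of all probe sets. The 4 genes had the smallest limma p values of the 49 genes in individual rats. The pools hold targets of those same rats, so this separation is not an independent test.

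The pools of 12, 1 mixture per group, have no replicate of the mixture and no test. Averaged over the 4 arrays of each, all 49 genes were higher in the treated pool, by 0.04 to 0.79, with a median of 0.31 against -0.02 over all probe sets. In 41 genes the 4 treated arrays lay above the 4 control arrays, as in 9.54% of all probe sets. Ndufs1 read 8.97, 9.0, 9.02 and 9.15 on the treated and 8.0, 8.30, 8.34 and 8.35 on the control arrays, where 8.0 came from the control array that stood apart. Without that array the median difference was 0.28. On average pools lay above the mean of their own rats, by 0.05 ± 0.07 in treated and 0.07 ± 0.06 in control pools of 2 (SD, n = 6), and by 0.05 ± 0.08 and 0.11 ± 0.05 in pools of 3 (SD, n = 4). Single pools lay below it, such as treated pool of 2 number 5, at -0.03 relative to it, and treated pool of 3 number 1, at -0.04. Technical scores were higher in the pools as well, 5.83 ± 6.75 in treated and 5.81 ± 5.51 in control pools of 2. The part of the score in the height of the pools was not tested.

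**Figure D4:**
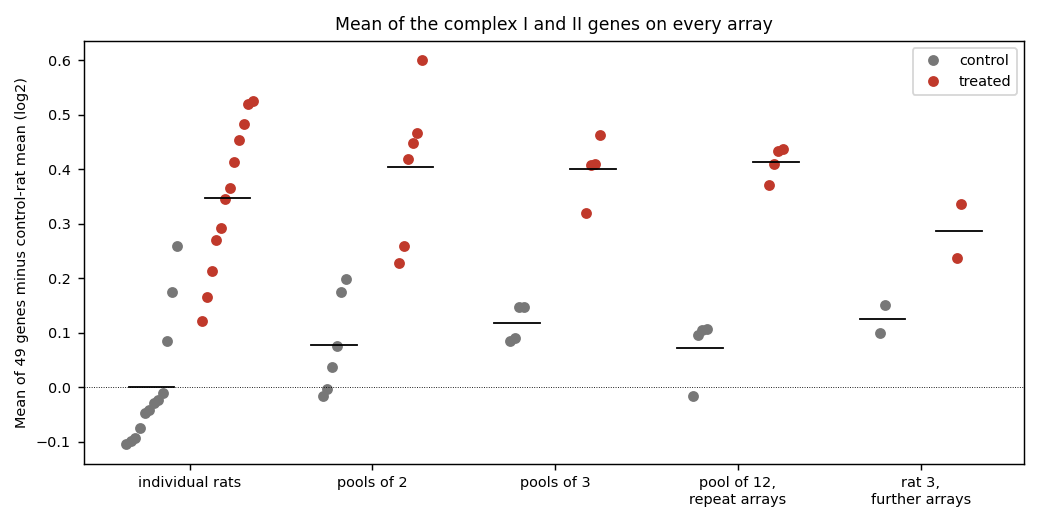
Mean of the 49 genes on each of the 56 arrays minus the mean of the control rats (vertical axis, log2), for individual rats, pools of 2, pools of 3, the repeat arrays of the pools of 12 and the further arrays of rat 3; horizontal lines are group means. Treated pools of each size lie above the control pools of that size, while control rats 15 and 8 reach into the range of the treated rats, and 1 array of the control pool of 12 lies at -0.02 against 0.10 to 0.11 for the others.

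Treatment was also compared within each stage of the cycle. Among the rats in diestrus, 6 treated and 9 control, 32 of the 49 genes rose and 0 fell, where 4.3% of all probe sets were called higher and 4.43% lower, with a median of 0.31. This fell to 19 genes without treated rat 7 and to 20 without treated rat 4, and it was 38 without control rat 15. Among the rats in proestrus or estrus, 6 treated and 3 control, 12 rose and 0 fell, where 1.2% of all probe sets were called higher and 0.284% lower, and all 49 differences were above 0 with a median of 0.34. These 12 calls rest on few rats: 0 were left without control rat 3 or 10 or treated rat 2 or 12, 1 without treated rat 10 or 14, 3 without treated rat 11 and 25 without treated rat 3, and 2 were left when each array was centred on its median. All 12 were among those called in diestrus. Ndufs1 differed by 0.77 in diestrus and by 0.81 outside it, and Sdhc, the anchor, by 0.49 and 0.57. The sign of the difference changed between stages in 2 genes, Ndufaf5 and Ndufaf7, neither of them called in either stage.

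The interaction asked whether the treatment difference itself depended on stage: 0 of the 49 genes and 0 of all probe sets were called by limma, and 0 of the 49 had an unadjusted p under 0.05 (322 of all probe sets). The smallest p values were those of Ndufaf5 (0.13, p = 0.0799), Ndufa4l2 (0.10, p = 0.0912) and Ndufa5, a matrix arm subunit (0.18, p = 0.210), all by limma before adjustment, as the difference outside diestrus minus that in diestrus.

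Between stages, with treatment accounted for, 0 of the 49 genes and 0 of all probe sets were called by limma. Unadjusted p values under 0.05 were found in 3 of the 49 and in 3.66% of all probe sets. These were Ndufa3, a membrane arm subunit (0.11, p = 0.0249), Ndufb8, of the far membrane arm (0.16, p = 0.0317), and Ndufaf8 (0.19, p = 0.0360), each higher outside diestrus and each with an adjusted p of 0.999 by limma. The stage difference was above 0 in 48 of the 49 genes, with a median of 0.07, against 58.5% of all probe sets and a median of 0.01. The mean of the 49 genes was 0.39 ± 0.11 in treated rats outside diestrus and 0.30 ± 0.16 in diestrus (SD, n = 6 each), and 0.04 ± 0.12 (n = 3) and -0.01 ± 0.12 (n = 9) in controls.

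Genes of the steps around complexes I and II were read in the individual rats from lists of their own. Complex III, which takes the electrons from ubiquinone, had 8 of 8 genes called higher with a median of 0.51, led by Cyc1 (0.66) and Uqcrq (0.60). Complex IV had 8 of 9 (median 0.33; Cox8a 0.43, Cox5b 0.425), and ATP synthase 13 of 13 (median 0.34; Atp5pb 0.44, Atp5mc3 0.38). The citrate cycle beside complex II had 11 of 12 (median 0.47), led by Dld, the dehydrogenase subunit shared by the oxoacid complexes (0.75), and Cs, citrate synthase (0.72). Among genes of ubiquinone synthesis and of its other reducers 9 of 17 rose and 2 fell, Coq8a by 0.49 and Sqor by 0.30, where 8.46% of all probe sets were called higher and 9.59% lower. Coq9, which the synthesis of ubiquinone needs, rose by 0.715 and Etfdh, which brings in electrons from fatty acid oxidation, by 0.695.

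Called counts differed between the lists of supply and building factors, where 8.46% of all probe sets were called higher and 9.59% lower. Of the other complex I assembly factors 6 of 11 rose (median 0.16), with Tmem126a at 0.62 and Aifm1 at 0.37. Of the iron-sulphur cluster genes 6 of 12 rose (median 0.20), with Bola3 at 0.60 and the scaffold Iscu at 0.49. Of 3 genes of riboflavin and FAD supply 0 were called, and 1 of them, Flad1, had an unadjusted limma p under 0.05. Of 6 regulators of mitochondrial genes 1, Esrra, rose, by 0.14, while Ppargc1a, which is also among the brown fat markers, stood at 0.02 and Tfam at -0.10. Of 10 outer membrane and import genes 2 rose, the chaperones Hspe1 (0.26) and Hspd1 (0.22), and both calls were lost after quantile normalization (limma adjusted p = 0.0892 and 0.0944). Whether these lists differ from complexes I and II, or from the shares over all probe sets, was not tested.

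**Figure D5:**
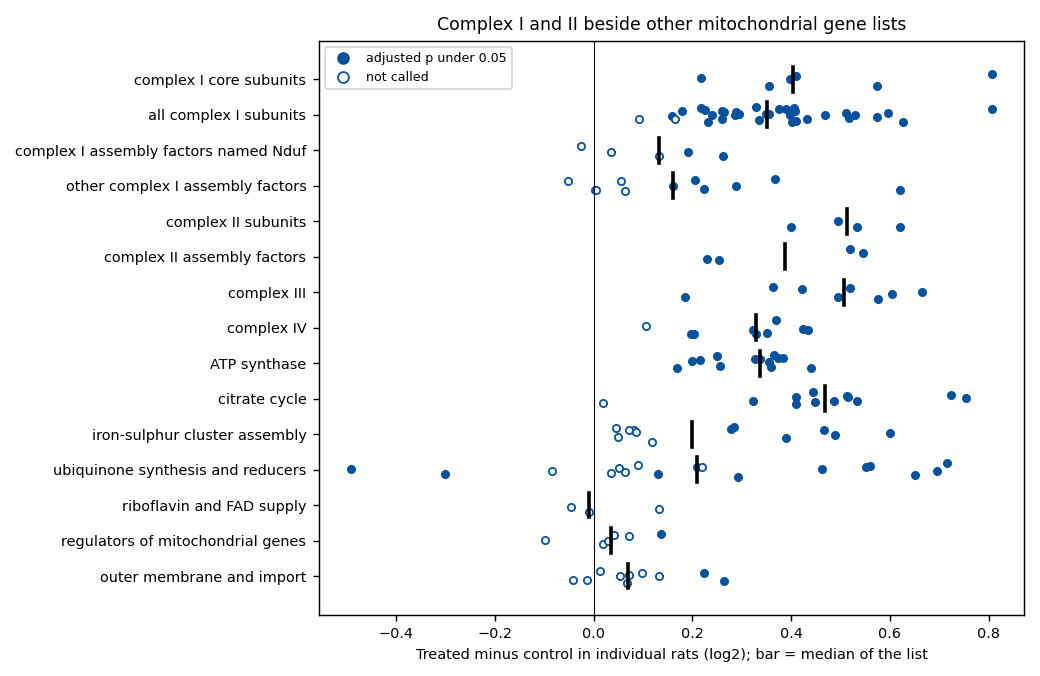
Treated minus control difference in individual rats (horizontal axis, log2) of each measured gene of complexes I and II and of other mitochondrial gene lists (vertical axis); filled points have an adjusted p under 0.05, bars are list medians, and the vertical spread of points has no meaning. Medians run from 0.51 in complex II subunits and complex III to -0.01 in riboflavin and FAD supply.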

How the data were processed

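The authors' deposited table holds 1 value per probe set and array. The unit was inferred as log2 from the deposited values, whose highest, 14.08, lies between the natural log (11.1) and the log2 (16) of a 16-bit scanner's maximum. Software, background correction and normalization: not given in the sources used here. Values were used as deposited. Per the labels, 5 µg of RNA of each rat was labelled and fragmented before targets were combined to 10 µg. Rats of a group are separate animals; for the pools of 12, titles were followed where the source label calls an array individual.

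Left out were 57 control probe sets. Symbols came from the platform's annotation, updated by Entrez ID to RefSeq GRCr8 (12748 probe sets); 12783 probe sets had 1 symbol, 312 several and 2771 are unnamed here. Tests used limma 3.58.1 (lmFit, eBayes) in R 4.3.3, with Python 3.11.15, numpy 2.4.6, pandas 2.3.3 and matplotlib 3.10.9, and were tested on simulated data. The stage model held treatment as a covariate, and the interaction was its added term. The technical score is the position on the leading component of differences between 14 repeat arrays, which held 57.3% of their variance. The labels state no pairing of rats by number, and the main tests used none. Alternatives covered threshold, normalization, prior, array weights, probe set choice, stage, technical score, block, each array left out in turn and the exact rank-sum test. Named were the 12 largest rises, core and complex II subunits, assembly factors, Ndufa4 and Ndufa4l2, the 3 smallest p for stage and interaction, genes whose probe sets disagree, and the 2 largest called changes of each other list; further genes were named after their values were seen. The members and lists were chosen with earlier results of these data known.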

Additional observations from a re-analysis of the deposited data

Results flagged for a closer look

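In 63 tests for a value far from the others, made in groups of 4 to 10 arrays, 9 found one. Chance gives about 1 in 20 in a single test, but these tests shared arrays and genes. The count of 9 can therefore not be set against that rate. The array of the control pool of 12 that its title calls technical rep3 was low in 3 of these: its mean over the 49 genes was -0.0159 (others 0.0957 to 0.106), over the complex I subunits -0.00608 (others 0.11 to 0.12) and in Ndufs1 8.0 (others 8.30 to 8.35). Control rat 15 was high among the control rats in diestrus, with a mean of the complex II subunits of 0.25 (the next at 0.02) and Ndufs1 at 8.59 (the next at 8.22). Among the treated rats in proestrus or estrus, rat 3 was low in Ndufs1 at 8.42 (the next at 8.96) and rat 11 high in Ndufa12 at 11.22 (the next at 10.93). Of the treated pool of 12, 1 array was low in Ndufc1 at 10.47 (others 10.54 to 10.55) and another high in Ndufa12 at 11.01 (others 10.88 to 10.90).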

How the results depend on the processing

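In individual rats 40 to 45 of the 49 genes were called under each of 37 alternatives (44 as reported), and none was called lower. At an adjusted p of 0.01 the count was 17 in pools of 2, 11 in pools of 3, 13 within diestrus and 0 outside it. In pools of 3 it was 11 without the pools that hold rat 3. Outside diestrus 2 genes were called after centring each array on its median. Leaving out 1 array gave 42 to 45 in individual rats, 25 to 37 in pools of 2, 13 to 26 in pools of 3, 19 to 38 within diestrus and 0 to 25 outside it, and a median difference of 0.28 to 0.35 between the pools of 12. For stage and for the interaction limma called 0 genes under all 33 alternatives of each. In individual rats, no difference of a gene named by the rule above changed direction. Genes of the other lists were followed only under median centring, quantile normalization and the technical score. Genes named after their values were seen were not followed, nor were single genes in the other comparisons. In individual rats Ndufs8 lost its call under 8 of 37 alternatives, Ndufaf3 and Ndufaf4 at an adjusted p of 0.01, and Ndufv3 with its other probe set. With rat number as a block, over the 10 numbers both groups share, 42 genes were called, against 44 in the same rats with no block. The correlation of same-numbered rats ran from -0.39 to 0.36, over 0.1 in 5 of 10, and 1 treated rat correlated best with its own number. The alternatives without the pools that hold rat 3, for both pool sizes, were chosen after seeing the data. So were the technical score in pools and the shared numbers with no block. Causes of these changes were not tested. The number of arrays limits the precision.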
